A study of Mus musculus with 6 samples.

Results

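Cohesin, CTCF, lamin and Satb1 genes are a set of 10 genes chosen by name and function, of the 12894 genes in the deposited table, that encode proteins which fold the chromosomes or line the nucleus. The members were Smc1a, Smc3, Rad21 and Stag2 (subunits of cohesin), Wapl (the cohesin release factor), Ctcf, the lamin genes Lmna, Lmnb1 and Lmnb2, and Satb1. All 10 were found by symbol and all 10 passed the filter on low values. The tissue was epidermis separated from dermis of newborn C57BL/6 mice (postnatal day 0), and its RNA was read by bulk RNA sequencing. The 3 libraries of the genotype Hnrnpu knockout, made by loxP and Cre recombination, are called KO-labelled. The 3 controls comprised 1 animal labelled Wild type (control 1) and 2 labelled Heterogenous (controls 2 and 3). The promoter that drove Cre, the deleted part of Hnrnpu and the alleles that the controls carried are not given in the labels. Each title has its own number, so each library was taken as a separate animal.

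Cohesin is a ring that extrudes loops of DNA until it meets CTCF, a zinc finger protein bound to DNA, and it also holds sister chromatids together after replication. WAPL opens the ring and takes cohesin off chromatin. Lamins form the meshwork under the inner nuclear membrane to which silent chromatin is tethered: B-type lamins are made in most cells, while A-type lamins increase as tissues differentiate. SATB1 binds AT-rich DNA at the base of chromatin loops, and in mouse epidermis it is a target of p63 that shapes the locus of the epidermal differentiation genes. HNRNPU, also called scaffold attachment factor A, is an RNA- and DNA-binding protein of the nuclear matrix.

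The libraries had an estimated 6453842 to 9112027 assigned reads each, fewest in KO-labelled library 2, with medians between 130.8 and 138.2 normalized counts. Summed normalized counts lay wholly higher in the KO-labelled libraries. They were 8191409, 10987666 and 8469679 in KO-labelled libraries 1 to 3 and 6850663, 7328810 and 7453638 in controls 1 to 3. Hnrnpu itself had 1565, 1342 and 1036 normalized counts in KO-labelled libraries 1 to 3 and 1450, 1318 and 1160 in controls 1 to 3 (log2 difference −0.01 ± 0.20 SE, limma adjusted p = 0.976). A count over the full gene does not check the genotype if a small part was deleted, so every direction here rests on the labels. Krt10, a keratin of the differentiated layers, was abundant in each library, with 159412 to 258828 normalized counts in the KO-labelled libraries and 263804 to 291291 in controls. Other keratins differed strongly between the groups, as given below. The KO-labelled libraries 2 and 3 had 5656 and 4758 normalized counts of Xist, the RNA of the inactive X chromosome, while KO-labelled library 1 had 1.87 and controls had at most 3.27. Ddx3y, a gene of the Y chromosome, had 323.3, 0 and 0 in KO-labelled libraries 1 to 3 and 573.8, 646.4 and 544.4 in controls 1 to 3. By both genes only KO-labelled library 1 was of the same sex as the controls, so sex is partly confounded with the labels. The part of sex in the differences was not tested. In bulk samples, fewer cells of a type and less RNA per cell cannot be told apart.

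Of the 10 members, 1 was higher and 2 were lower in the KO-labelled libraries (limma on log2 normalized counts, Benjamini-Hochberg adjusted p of 0.05 over 12872 genes). Over all tested genes, 17.7% were called higher and 15.9% lower, 33.6% in all. The 3 calls among 10 members are thus near the share over the whole table. Lmna was higher, and Wapl and Satb1 were lower. The core ring subunits, Ctcf and the B-type lamins did not pass. The median log2 difference of the members was −0.14, beside −0.02 over all tested genes. The groups did not overlap for 5 members, 2 higher and 3 lower, where 25.8% of all tested genes lay wholly higher and 25.0% wholly lower, 50.8% in all.

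**Figure D1:**
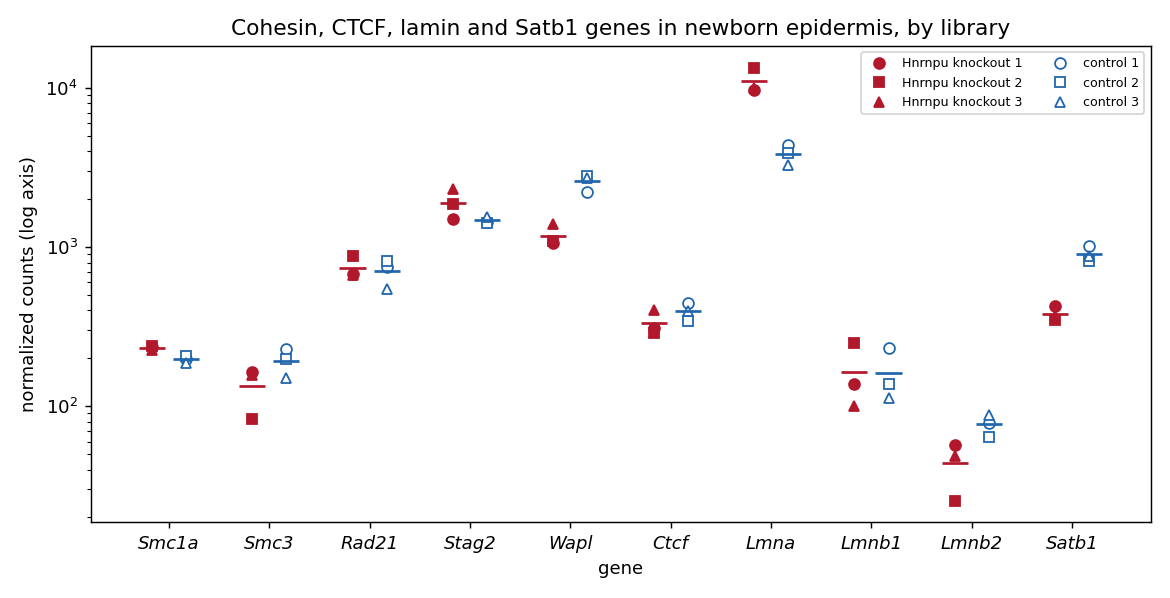
Normalized counts (log axis) of the 10 genes in the 3 KO-labelled libraries (filled red, left) and the 3 controls (open blue, right), with a bar at each group's mean. Lmna lies wholly higher and Wapl and Satb1 wholly lower in the KO-labelled libraries, while Rad21, Ctcf and Lmnb1 overlap.

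The sequences before the start sites of the 3 genes that passed are shown because these are the genes whose transcript levels changed. They are the 250 bases upstream of a RefSeq start (GRCm38.p6), 5′ to 3′ on the gene's strand, with capitals for matches on either strand to GGGCGG (the GC box) or CCAAT (the CCAAT box). Wapl has 1 start in that table (chr14:34673678-34673927, plus strand). For Lmna, with 2 starts, and Satb1, with 5, the farthest upstream start is shown (chr3:88503353-88503602 and chr17:51833291-51833540, minus strand).
Wapl: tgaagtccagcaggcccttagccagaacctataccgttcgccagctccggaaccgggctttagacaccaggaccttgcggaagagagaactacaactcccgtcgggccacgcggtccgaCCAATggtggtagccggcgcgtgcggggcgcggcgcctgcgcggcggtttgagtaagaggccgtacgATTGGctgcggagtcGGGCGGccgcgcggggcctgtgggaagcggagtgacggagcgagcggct
Lmna: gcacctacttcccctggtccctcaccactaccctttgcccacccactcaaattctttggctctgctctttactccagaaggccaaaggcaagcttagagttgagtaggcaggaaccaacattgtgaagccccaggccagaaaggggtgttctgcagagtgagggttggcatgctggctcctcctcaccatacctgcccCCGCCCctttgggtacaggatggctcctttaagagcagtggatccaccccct
Satb1: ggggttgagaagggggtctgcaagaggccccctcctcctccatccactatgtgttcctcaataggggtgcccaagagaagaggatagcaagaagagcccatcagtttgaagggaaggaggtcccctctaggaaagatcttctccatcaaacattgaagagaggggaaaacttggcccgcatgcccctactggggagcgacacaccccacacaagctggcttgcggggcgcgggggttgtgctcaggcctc
The Wapl window holds 1 GC box and 2 CCAAT boxes and is 67.6% G and C. The Lmna window holds 1 GC box and is 56.4% G and C, and the printed Satb1 window holds neither motif and is 58.0% G and C. Other starts differ: 1 of the other Satb1 windows (chr17:51832648-51832897) holds 3 GC boxes and is 80.8% G and C, and the other Lmna window holds 1 CCAAT box. Of 32851 such windows in the table, 32.7% hold a GC box and 33.8% a CCAAT box. None of the 3 windows holds TGANTCA (the AP-1 site, in 6.75% of windows) or TGATGNAA (a composite C/EBP-ATF site, in 3.45%), and no matches overlapped. A match is a run of letters and not a bound site, and which start was used cannot be read from gene counts.

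Lmna encodes the A-type lamins A and C, spliced forms that the gene count does not separate. Lmna had 9696, 13434 and 9984 normalized counts in KO-labelled libraries 1 to 3, against 4403, 3894 and 3275 in controls 1 to 3. All 3 KO-labelled libraries lay above all 3 controls, and the lowest of them had more than 2 times the count of the highest control. Lmna rose by 1.51 ± 0.20 on the log2 scale, or 2.85-fold, where the 95% interval spans 206.7 to 392.9% of the control level (SE, n = 3 and 3; limma adjusted p = 0.00128). It ranked 526 of 12872 genes by p-value. With quantile normalization the rise was 0.87 on the log2 scale (adjusted p = 0.00918), and with library totals set equal it was 1.17. The call held without each library in turn, with log2 differences of 1.36 to 1.61.

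Neither B-type lamin gene passed. Lmnb1 encodes lamin B1, which is abundant in cycling cells. Lmnb1 had 138.3, 250.1 and 100.9 normalized counts in KO-labelled libraries 1 to 3 and 233.3, 138.1 and 112.0 in controls 1 to 3. KO-labelled library 2 and control 1 were the highest, and the groups overlapped throughout. The log2 difference of −0.02 ± 0.38 did not pass (adjusted p = 0.979, limma), and its 95% interval, from 53.9 to 181% of the control level, is wide. Lmnb2, which encodes lamin B2, was the lowest member, with 57.0, 25.5 and 48.8 normalized counts in KO-labelled libraries 1 to 3 and 78.5, 63.8 and 88.3 in controls 1 to 3. The groups did not overlap, and the value of 25.5 in KO-labelled library 2 stands for about 15 reads. The log2 difference was −0.86 ± 0.35, with an unadjusted p of 0.0363 that did not hold after adjustment (adjusted p = 0.0868, limma). Lmnb2 passed when libraries with adjacent animal numbers were taken as pairs (adjusted p = 0.0344), and the difference was −0.52 without KO-labelled library 2.

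The balance of A-type to B-type lamin transcripts was compared within libraries, where the scaling of a library cancels out. The log2 ratio of Lmna to Lmnb1 was 6.12, 5.74 and 6.61 in KO-labelled libraries 1 to 3 and 4.23, 4.81 and 4.86 in controls 1 to 3. These ratios lay wholly apart, at 6.16 ± 0.44 in the KO-labelled libraries and 4.63 ± 0.35 in controls (SD, n = 3 each). The difference of 1.53 gave p = 0.1 in an exact two-sided permutation test, the smallest p that 3 against 3 libraries allow.

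Wapl encodes the factor that releases cohesin from chromatin. Wapl had 1057, 1089 and 1398 normalized counts in KO-labelled libraries 1 to 3, against 2232, 2814 and 2707 in controls 1 to 3. The groups lay wholly apart, and the highest KO-labelled library was well under the lowest control. Wapl fell by 1.13 ± 0.18 on the log2 scale, to 45.6% of controls (95% interval 34.0 to 61.1%; SE, n = 3 and 3; limma adjusted p = 0.00295). The log2 differences without each library in turn were −1.26 to −1.06, all past the threshold.

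The ring subunits of cohesin did not pass in either direction. Smc1a and Smc3 encode the long coiled-coil arms of the ring. Smc1a had 234.6, 239.9 and 226.2 normalized counts in KO-labelled libraries 1 to 3 and 199.3, 208.1 and 188.0 in controls 1 to 3. It varied little within each group, by 3.0% of the mean in the KO-labelled libraries and 5.1% in controls, and the groups did not overlap. The log2 difference of 0.23 ± 0.17 did not pass (adjusted p = 0.319, limma), and it was −0.11 with library totals set equal. Smc3 had 163.5, 83.4 and 156.3 normalized counts in KO-labelled libraries 1 to 3 and 228.0, 197.5 and 149.6 in controls 1 to 3. KO-labelled library 2 was the lowest library, at about 49 reads, and the groups overlapped. The log2 difference was −0.55 ± 0.30 (adjusted p = 0.189), or −0.24 without KO-labelled library 2.

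Rad21 encodes the kleisin that closes the ring. Rad21 had 678.5, 884.7 and 664.2 normalized counts in KO-labelled libraries 1 to 3 and 752.8, 814.7 and 546.9 in controls 1 to 3. The groups overlapped in part, with KO-labelled library 2 highest and control 3 lowest. The log2 difference of 0.08 ± 0.21 (adjusted p = 0.784, limma) changed sign with the scaling, at −0.26 with library totals set equal and −0.10 with quantile normalization. Its 95% interval allows 75.6 to 148% of the control level. Stag2 encodes the more abundant of the alternative STAG subunits of somatic cohesin. Stag2 had 1507, 1856 and 2332 normalized counts in KO-labelled libraries 1 to 3 and 1438, 1423 and 1554 in controls 1 to 3. KO-labelled library 1 lay within the controls and KO-labelled libraries 2 and 3 above them, a log2 difference of 0.35 ± 0.19 that did not pass (adjusted p = 0.194) and was 0.00 with library totals set equal.

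Smc1a and Stag2 lie on the X chromosome, and the KO-labelled libraries 2 and 3 were the ones with Xist. KO-labelled library 1 alone lay 0.04 above the controls for Stag2 and 0.24 for Smc1a on the log2 scale, values of 1 library that carry no test here. The part of the X chromosome in these values was not tested.

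Ctcf encodes the insulator protein at which cohesin stops. Ctcf had 309.3, 287.5 and 401.4 normalized counts in KO-labelled libraries 1 to 3 and 443.2, 344.5 and 398.1 in controls 1 to 3. KO-labelled library 3 lay among the controls and the other two lay below them. The log2 difference of −0.26 ± 0.20 did not pass (adjusted p = 0.348, limma), with an interval of 60.9 to 115% of the control level. Exons of Ctcf overlap Agrp and Gm5914 on the opposite strand, and whether counting used strand is not given in the sources used here.

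**Figure D2:**
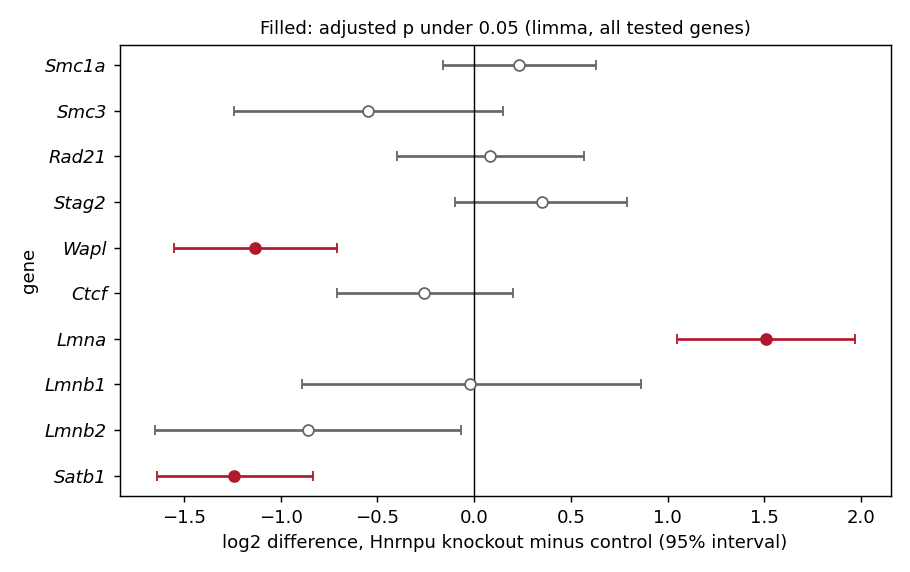
Log2 difference in normalized counts, KO-labelled libraries minus controls, for each of the 10 genes (points) with its 95% interval from limma (bars). Filled red points passed an adjusted p of 0.05, namely Lmna at 1.51, Wapl at −1.13 and Satb1 at −1.24, and the interval of Lmnb1 is the widest of the 10, from −0.89 to 0.86.

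Satb1 encodes the organizer of AT-rich loop bases described above. Satb1 had 427.0, 350.4 and 369.2 normalized counts in KO-labelled libraries 1 to 3, against 1018, 814.6 and 873.8 in controls 1 to 3. The groups lay wholly apart, and the wild type control was the highest. Satb1 fell by 1.24 ± 0.18 on the log2 scale, to 42.5% of controls (95% interval 32.2 to 56.1%; SE, n = 3 and 3; limma adjusted p = 0.00166). Without each library in turn the log2 difference was −1.32 to −1.15.

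Gm6934, a gene model at the start of Satb1 that GENCODE marks as still to be tested by experiment, was looked up because its exons overlap those of Satb1 by 128 bases on the opposite strand, and its values were described after they were seen. The annotated span of Gm6934 (GENCODE M21, GRCm38) covers all 250 bases of the Satb1 window printed above. Gm6934 had 0.935, 1.70 and 4.44 normalized counts in KO-labelled libraries 1 to 3, against 49.8, 46.9 and 64.6 in controls 1 to 3. It fell by 4.15 ± 0.58 on the log2(value + 1) scale (adjusted p = 0.00146, limma), and the call held without each library in turn. Another model of that kind within Satb1 on the same strand, Gm36931, had 23.5, 8.60 and 14.5 normalized counts in KO-labelled libraries 1 to 3, against 51.4, 31.0 and 58.0 in controls 1 to 3. Its log2 difference was −1.59 ± 0.46 (adjusted p = 0.0298), and it did not pass without KO-labelled library 2, control 1 or control 3 (adjusted p = 0.0649, 0.0991 and 0.114). Reads in the shared bases cannot be assigned to one of these genes.

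Satb1 is also made by T cells, so their markers are given beside it. Of 11 T cell markers 3 were measured. Cd3e, a subunit of the T cell receptor complex, had 0.935, 3.40 and 2.22 normalized counts in KO-labelled libraries 1 to 3, against 22.7, 41.6 and 14.7 in controls 1 to 3. It fell by 3.06 ± 0.71 on the log2 scale (adjusted p = 0.0128, limma), a call lost without control 1 or control 2 (adjusted p = 0.0516 and 0.0967). The KO-labelled values of Cd3e lie near the floor. The other 2 markers did not pass. Trbc2 had 65.3, 120.7 and 96.3 in KO-labelled libraries 1 to 3 and 55.6, 58.15 and 62.0 in controls 1 to 3. It lay wholly higher (0.63 ± 0.28, limma adjusted p = 0.113), while Thy1 overlapped (−0.26 ± 0.45, adjusted p = 0.680). Summed over the 3 markers, which include the abundant Trbc2, the level was 117 to 150 normalized counts in the KO-labelled libraries and 104 to 141 in controls, and none was at 0 in any library. The part of T cells in the fall of Satb1 was not tested.

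Markers of other cells are given beside Lmna, with 17.7% of all tested genes higher and 15.9% lower. Of 10 dermal fibroblast markers 6 were measured, 4 of them higher while Dcn (−0.75 ± 0.58) and Sparc (−0.01 ± 0.43) did not pass, with a summed level of 1267 to 2967 normalized counts in the KO-labelled libraries and 605 to 1413 in controls. All 7 melanocyte markers were higher, with a summed level of 2829 to 4682 in the KO-labelled libraries and 412 to 586 in controls. No marker of either list was at 0 in any library. Of 14 markers of other leukocytes 10 were measured, 3 of them higher, among them Kit, which melanocytes also make, and 1 lower. Another of the higher ones, S100a8, was listed at 0 in at least 1 library. The size of its difference, 8.97 on the log2 scale, therefore depends on the 1 added before the logarithm. Higher calls numbered 1 without KO-labelled library 1 or 2 and lower calls 2 without KO-labelled library 2 and 0 without any other library. Of 10 endothelial and muscle markers only Pecam1 was measured and did not pass. Of 13 keratinocyte markers 12 were measured, 2 of them higher and 1 lower. Krt14 rose by 3.21 ± 0.61 on the log2 scale and Cdh1 by 0.69 ± 0.18, while Krt15 fell by 6.84 ± 0.76. Krt15 had 50.5, 5.10 and 52.1 normalized counts in KO-labelled libraries 1 to 3, against 4009, 3406 and 1833 in controls 1 to 3. The calls of Krt14 and Krt15 held without each library in turn, and that of Cdh1 was lost without each control. The difference of Cdh1 also depended on the scaling. It was 0.34 with library totals set equal and −0.02 with quantile normalization (adjusted p = 0.0600 and 0.909, limma). The keratinocyte counts were 1 and 5 with library totals set equal, 1 and 4 with quantile normalization, 2 and 4 with adjacent animal numbers as pairs, 2 and 2 without KO-labelled library 3, and 1 and 1 without control 1, 2 or 3. The part of other cells in the rise of Lmna was not tested.

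Levels were set in order per kilobase of annotated exon, since longer transcripts gather more reads. In the KO-labelled libraries the order was Lmna with 1891 ± 356 normalized counts per kilobase, Stag2 with 230 ± 50.03, Wapl with 178 ± 28.5, Rad21 with 175 ± 29.2, Ctcf with 68.5 ± 12.4, Lmnb1 with 55.1 ± 26.2, Smc1a with 40.5 ± 1.20, Smc3 with 24.3 ± 8.01, Satb1 with 20.1 ± 2.098 and Lmnb2 with 10.2 ± 3.81 (SD, n = 3). In controls it was Lmna with 661 ± 96.7, Wapl with 390 ± 46.8, Stag2 with 178 ± 8.67, Rad21 with 167 ± 33.1, Ctcf with 81.3 ± 10.2, Lmnb1 with 54.4 ± 21.6, Satb1 with 47.4 ± 5.49, Smc3 with 34.6 ± 7.14, Smc1a with 34.4 ± 1.75 and Lmnb2 with 17.9 ± 2.88 (SD, n = 3). Wapl stood wholly above Stag2 in controls and overlapped Stag2 and Rad21 in the KO-labelled libraries. Satb1 stood wholly above Smc3 and Smc1a in controls, while in the KO-labelled libraries it overlapped Smc3 and lay wholly below Smc1a. In both groups the values of Stag2 and Rad21, of Ctcf and Lmnb1, and in controls those of Lmnb1 and Satb1 and of Smc3 and Smc1a, overlapped between neighbours. The length of Satb1, 19.0 kilobases over all annotated exons, is the longest here, so its level per kilobase is low if shorter forms are made.

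By the shape of its values over the 6 libraries, Lmna was most like Tmem147, Ap1s2 and the processed pseudogene Gm12346, whose reads may be shared with its parent gene, at a root mean square distance of 0.086, 0.095 and 0.101 on the log2 scale from the control mean. Tmem147, a membrane protein of the endoplasmic reticulum, had 397, 529 and 385 normalized counts in KO-labelled libraries 1 to 3, against 171, 138 and 141 in controls 1 to 3. This is a description of 6 libraries in 2 groups.

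Of 17 partners of cohesin that load, lock and cut the ring, 14 were measured, 0 were higher and 4 lower. Over all tested genes 17.7% were higher and 15.9% lower. The median log2 difference of the partners was −0.56, beside −0.02 over all tested genes. Rec8, the meiotic kleisin, fell by 2.37 ± 0.38 on the log2 scale (adjusted p = 0.00281, limma), with 15.9, 22.1 and 39.9 normalized counts in KO-labelled libraries 1 to 3 and 95.9, 134.6 and 165.9 in controls 1 to 3. The others were separase (Espl1, −0.98 ± 0.23), shugoshin 1 (Sgo1, −2.36 ± 0.64) and the acetyltransferase of replicating cells (Esco2, −3.10 ± 0.89). In KO-labelled libraries 1 to 3 Sgo1 had 8.41, 3.40 and 3.33 normalized counts and Esco2 had 7.48, 0 and 3.33. Such values lie near the floor, so these 2 sizes depend on the 1 added before the logarithm. With library totals set equal 7 were lower. Without control 1, 2 or 3 the count was 2, 1 and 2, and Rec8 passed in each. The call of Espl1 was lost without control 2 (adjusted p = 0.0631), and those of Sgo1 and Esco2 without each of the 3 controls (0.0501 to 0.116).

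The loading factor and the alternative subunits did not pass. Nipbl, which loads cohesin and drives loop extrusion, had 1237, 1082 and 1183 normalized counts in KO-labelled libraries 1 to 3 and 1365, 1355 and 1412 in controls 1 to 3 (log2 difference −0.24 ± 0.15, limma adjusted p = 0.247). The groups did not overlap, but they lay close. The log2 ratio of Wapl to Nipbl was −0.23, 0.01 and 0.24 in KO-labelled libraries 1 to 3 and 0.71, 1.05 and 0.94 in controls 1 to 3. All 3 KO-labelled libraries lay below all 3 controls, with a difference in means of −0.89 (exact two-sided permutation p = 0.1, the smallest that 3 against 3 allow).

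Stag1, the other somatic STAG subunit, had 259, 243 and 202 normalized counts in KO-labelled libraries 1 to 3 and 383, 276 and 240 in controls 1 to 3 (log2 difference −0.33 ± 0.23, limma adjusted p = 0.283). The log2 ratio of Stag2 to Stag1 was 2.54, 2.93 and 3.52 in KO-labelled libraries 1 to 3 and 1.91, 2.36 and 2.69 in controls 1 to 3, and the groups overlapped (difference 0.68, exact two-sided permutation p = 0.2). Within the pairs of adjacent animal numbers the ratio was higher in the KO-labelled library by 0.63, 0.57 and 0.83, and an exact two-sided sign-flip permutation over 3 pairs gave p = 0.25, the smallest it allows. Pds5a and Pds5b, which bind WAPL to the ring, differed by 0.07 ± 0.16 and −0.43 ± 0.39 on the log2 scale (adjusted p = 0.773 and 0.411).

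**Figure D3:**
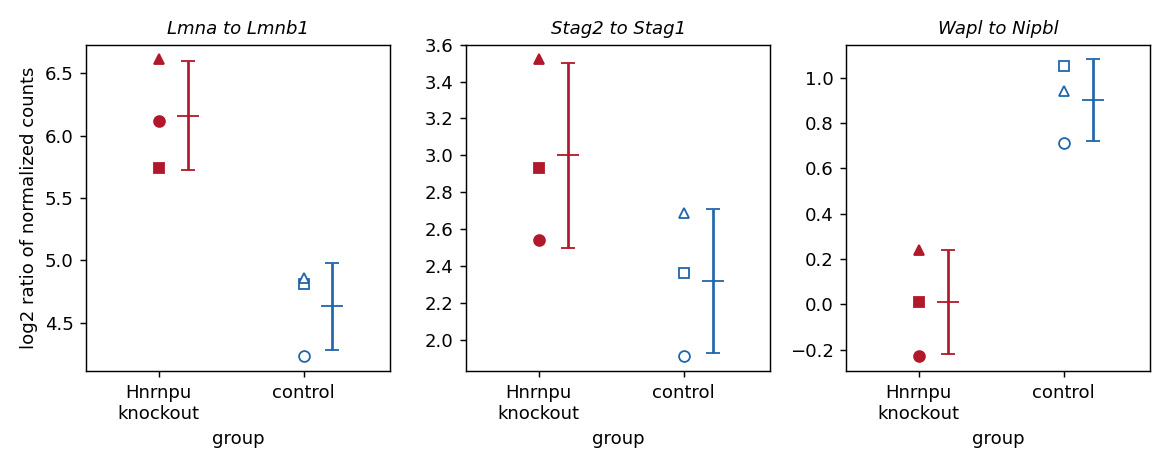
Log2 ratio of the normalized counts of 2 genes within each library, for the KO-labelled libraries (filled red, left) and controls (open blue, right), with the mean and SD beside the points. The ratio of Lmna to Lmnb1 is wholly higher and that of Wapl to Nipbl wholly lower in the KO-labelled libraries, while Stag2 to Stag1 overlaps.

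Among genes of condensin and the SMC5/6 complex, the other SMC rings, the higher calls were all of SMC5/6. Calls of condensin genes were all lower. Of 18 genes measured, 2 were higher and 6 lower, beside 17.7% higher and 15.9% lower over all tested genes (median log2 difference −0.52). Smc6 (−0.96 ± 0.24) and Nsmce4a (−0.90 ± 0.22) of the SMC5/6 complex and the condensin II subunit Ncaph2 (−0.70 ± 0.17) fell, while Nsmce1, the RING subunit of SMC5/6, rose by 2.28 ± 0.56. Lower calls numbered 3 without KO-labelled library 2, 2 without control 1 and 1 without control 2, and no gene was higher without KO-labelled library 2 or control 3. The calls were lost without control 1 for Smc6 (adjusted p = 0.0721, limma), without control 2 for Nsmce4a and Ncaph2 (0.0732 and 0.0718), without control 3 for Ncaph2 (0.0579), and without KO-labelled library 2, control 2 or control 3 for Nsmce1 (0.0530, 0.0582 and 0.0542).

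Of 14 measured factors that bind DNA or form loops with CTCF and cohesin, 0 were higher and 3 lower (median log2 difference −0.30). The lower count is near the share over all tested genes, 15.9%, where 17.7% were higher. Med1, a subunit of the Mediator coactivator, had 449.5, 359.0 and 255.0 normalized counts in KO-labelled libraries 1 to 3 and 831.3, 648.2 and 790.4 in controls 1 to 3, a fall of 1.12 ± 0.24 on the log2 scale (adjusted p = 0.00855, limma). The remodeller Chd8 (−0.96 ± 0.27) and the bridging factor Ldb1 (−0.91 ± 0.27) also fell. Without control 1, 2 or 3 the count was 1, which was Med1, and without KO-labelled library 2 it was 2. The call of Ldb1 was also lost without KO-labelled library 1 or 2 (adjusted p = 0.0541 and 0.0557).

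Of 25 genes of the inner nuclear membrane and of lamin processing, 4 were higher and 5 lower, shares near the 17.7% higher and 15.9% lower over all tested genes (median log2 difference 0.13, or −0.22 with library totals set equal and −0.13 with quantile normalization). Sun2, a membrane protein that ties lamins to the cytoskeleton, had 386, 390 and 548 normalized counts in KO-labelled libraries 1 to 3, against 1545, 1608 and 1512 in controls 1 to 3. It fell by 1.83 ± 0.19 on the log2 scale (adjusted p = 4.09e-04, limma). Banf1, which links chromatin to the envelope and binds lamin A, rose by 1.41 ± 0.20, with 652, 879 and 617 normalized counts in KO-labelled libraries 1 to 3 and 232, 289 and 278 in controls 1 to 3. Tmem43, an inner membrane protein that binds lamins, rose by 1.35 ± 0.20. These 3 calls held without each library in turn.

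Among genes that mature prelamin A, calls went in both directions. Rce1 (0.66 ± 0.24) and Icmt (−0.24 ± 0.26) did not pass (adjusted p = 0.0637 and 0.504, limma). Fnta, the alpha subunit of the farnesyltransferase, fell by 0.80 ± 0.22 on the log2 scale, and its call was lost without each library other than KO-labelled library 3 (adjusted p = 0.0561 to 0.0872, limma). Fntb, the beta subunit, rose by 0.73 ± 0.24 (adjusted p = 0.0467), a call lost without each library other than control 3 (0.0539 to 0.157) and with library totals set equal (0.298). Zmpste24, the protease that cleaves prelamin A, rose by 0.67 ± 0.21 (adjusted p = 0.0378), a call lost without each library other than KO-labelled library 3 (0.0724 to 0.137) and with library totals set equal (0.268). Over the whole list, higher calls numbered 2 without KO-labelled library 1, KO-labelled library 2 or control 2, and lower calls numbered 2 without KO-labelled library 1, KO-labelled library 2 or control 1 and 1 without control 2 or 3.

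Nuclear matrix and AT-rich DNA binding proteins, the class of HNRNPU and SATB1, had 20 measured members, of which 1 was higher and 4 lower (median log2 difference 0.02, or −0.32 with library totals set equal and −0.15 with quantile normalization). The lower count is near the table-wide share of 15.9%, and the higher count is under the 17.7%. Parp1, an enzyme that adds ADP-ribose to chromatin at DNA breaks, had 153.3, 73.2 and 102.0 normalized counts in KO-labelled libraries 1 to 3 and 350.3, 375.4 and 360.5 in controls 1 to 3. It fell by 1.78 ± 0.27 on the log2 scale (adjusted p = 0.00227, limma), also without each library in turn. Srrm1 (−0.71 ± 0.18), Sltm (−0.60 ± 0.16) and Arid3a (−1.03 ± 0.31) fell as well. With adjacent animal numbers as pairs 3 were higher and 6 lower. Lower calls numbered 2, 1 and 2 without control 1, 2 and 3, and no gene was higher without KO-labelled library 1, control 2 or control 3. The calls were lost without control 1 or 2 for Srrm1, without each of the 3 controls for Sltm, and without KO-labelled library 1 or 3 or control 2 or 3 for Arid3a (adjusted p = 0.0523 to 0.112).

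Regulators of epidermal chromatin around p63 had 19 measured members, of which 1 was higher and 3 lower (median log2 difference −0.34). The lower share is near the 15.9% over all tested genes, and the higher share is under the 17.7%. The DNA methyltransferase genes Dnmt1 and Dnmt3a fell by 1.43 ± 0.28 and 1.34 ± 0.23 on the log2 scale (adjusted p = 0.00671 and 0.00349, limma), and the histone demethylase gene Kdm6b rose by 1.03 ± 0.22. These 3 calls held without each library in turn. Uhrf1, which guides DNMT1 to replicated DNA, fell by 1.45 ± 0.46, a call lost without KO-labelled library 2 or 3 or control 1 or 2 (adjusted p = 0.0798 to 0.141). With adjacent animal numbers as pairs 7 were lower. Without KO-labelled library 3 lower calls numbered 5, and without KO-labelled library 2, control 1 or control 2 they numbered 2. Trp63, which encodes p63 and lies upstream of Satb1 in mouse epidermis, had 2213, 1958 and 1133 normalized counts in KO-labelled libraries 1 to 3 and 2616, 3762 and 1700 in controls 1 to 3, with overlap (adjusted p = 0.203).

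Of 15 heterochromatin genes 0 were higher and 4 lower, beside 17.7% and 15.9% over all tested genes (median log2 difference −0.63). Atrx, a remodeller of silent chromatin, fell by 0.94 ± 0.19 on the log2 scale (adjusted p = 0.00762, limma), also without each library in turn. The histone methyltransferase gene Kmt5c fell by 1.13 ± 0.26, the HP1 gene Cbx3 by 0.91 ± 0.27 and the remodeller gene Hells by 1.65 ± 0.56. With adjacent animal numbers as pairs 1 was higher and 7 were lower. Without KO-labelled library 1 lower calls numbered 6, and without KO-labelled library 2 or control 1, 2 or 3 they numbered 2, 2, 1 and 2. The calls were lost without control 2 or 3 for Kmt5c (adjusted p = 0.0537 and 0.0524), without KO-labelled library 2 or 3 or control 1 or 2 for Cbx3 (0.0567 to 0.114), and without each library other than KO-labelled library 1 for Hells (0.0847 to 0.163).

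Proliferation markers are given beside the cohesin partners. Of 18 measured, 0 were higher and 7 lower (median log2 difference −1.76), with a summed level of 451 to 1120 normalized counts in the KO-labelled libraries and 1420 to 3081 in controls. Table-wide shares were 17.7% higher and 15.9% lower. Top2a (−2.14 ± 0.44), Ccna2 (−2.24 ± 0.48), Mki67 (−2.38 ± 0.58) and the replication helicase gene Mcm6 (−1.84 ± 0.49) fell (adjusted p = 0.00789, 0.00949, 0.0159 and 0.0226, limma). Other replication genes of the list did not pass (limma adjusted p = 0.202 to 0.742). They were Pcna (0.12 ± 0.25), Rrm2 (−0.22 ± 0.29), Mcm2 (−0.51 ± 0.34), Mcm5 (−0.79 ± 0.45) and Mcm3 (−0.87 ± 0.54). Lower calls numbered 3 without KO-labelled library 2 and 2 and 4 without control 1 and 2. The calls were lost without control 1 for Mki67 and without KO-labelled library 2 or control 1 for Mcm6 (adjusted p = 0.0525, 0.0664 and 0.0817). Bub1 and Bub1b were listed at 0 in KO-labelled library 2. The part of proliferation in the values of the cohesin, condensin and lamin B genes was not tested.

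**Figure D4:**
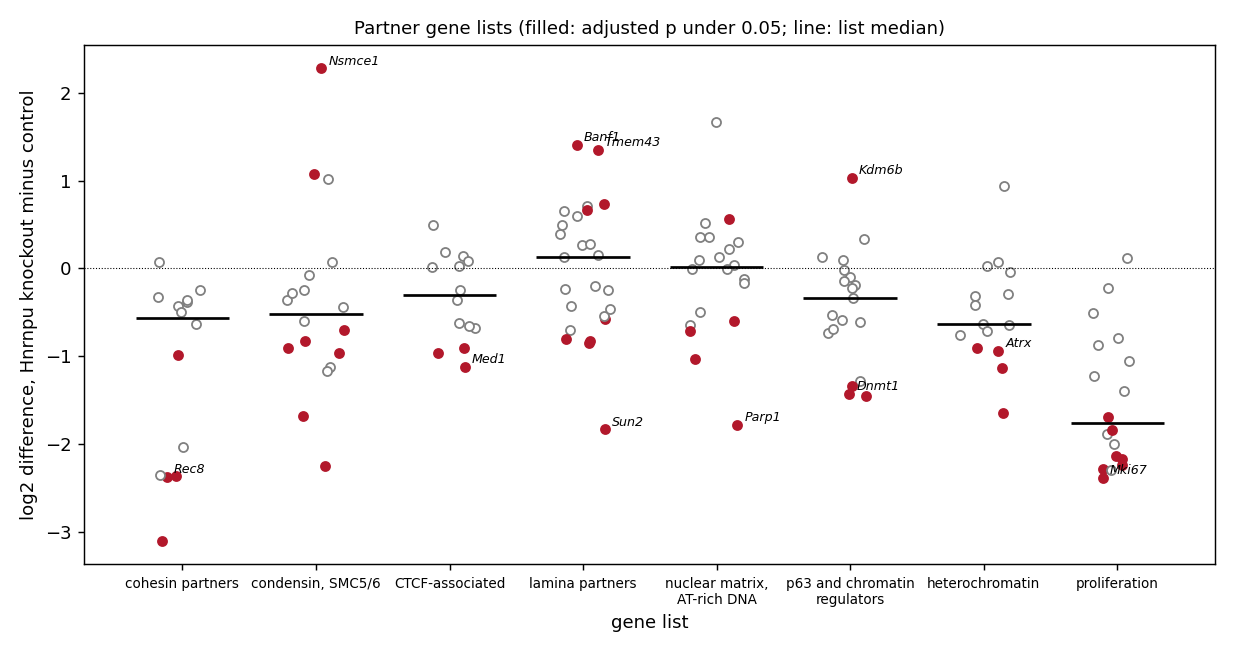
Log2 difference in normalized counts, KO-labelled libraries minus controls, for each measured gene of 8 partner lists (points; filled red passed an adjusted p of 0.05) with each list's median (line). List medians run from −1.76 for proliferation markers to 0.13 for lamina partners, where Sun2 lies at −1.83 and Banf1 at 1.41.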

How the data were processed

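The authors deposited a single table of normalized counts per gene, a signal that is never negative, with 6 library rows that each matched a sample title. The submitters' processing notes name the build mm39 and the tools Partek 9.0.20.0202 and TopHat2 2.1.0. The settings of counting, strand and normalization were not given in the sources used here. Low values, those of at most 20 reads, lay within 0.02 of a whole number of reads in 81.8 to 84.0% of cases when 1 read was set at 0.7555 to 1.7025 normalized counts by library, which allowed an estimate of depth but no recovery of whole reads, and count models were left out. Symbols were found for 12771 of 12894 gene IDs, and exon lengths come from GENCODE M21 (GRCm38).

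Genes above 1 normalized count in at least 3 libraries (12872) were compared as log2(value + 1) with limma 3.58.1 in R 4.3.3 (eBayes with a mean-variance trend, Benjamini-Hochberg adjustment over all tested genes at 0.05), so fold changes understate those of low genes. The script was tested on simulated data. Ratios within libraries were compared by an exact permutation test. The genes, lists and tests were chosen with earlier results of these data known. Of 14 lists, the text could name up to 4 genes each by smallest adjusted p among those that passed, or the 2 of highest mean where none did, and Stag1, Nipbl, Pds5a, Pds5b, Hnrnpu and Xist whatever their values, with the 3 genes of profile nearest to Lmna. Of the marker lists of other cells, counts are given and few genes named. Gm6934, Gm36931, Krt10, Ddx3y, Trbc2, Thy1, Trp63, Fntb, Zmpste24, Rce1, Icmt, Dcn, Sparc, Pcna, Rrm2, Mcm2, Mcm3, Mcm5, Bub1 and Bub1b fall outside this rule. Their values were known when they were chosen. The labels name no litters, and p-values measure only the spread between these libraries, which may be partly technical.

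Animal numbers in the titles run in adjacent couples of 1 KO-labelled and 1 control library (216 and 217, 241 and 242, 250 and 251). After subtraction of each group's mean, the couples correlated at 0.37, 0.23 and 0.36, and all other combinations at −0.28 to −0.07. Deviations from a group's mean cancel out within the group. Positive couples therefore push the other values below them, and those are not separate evidence. From the correlation of the couples in these same data, they were treated as pairs in an alternative fit with a block, although no label names a shared litter. The 17 alternative settings covered the pseudocount, filter, scaling, variance model, pairing, each library left out and KO-labelled library 1 alone.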

Additional observations from a re-analysis of the deposited data

How the results depend on the processing

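The calls of Lmna, Wapl and Satb1 held under the 16 alternatives with at least 2 libraries a group, with log2 differences of 0.87 to 1.61, −1.49 to −1.06 and −1.58 to −1.15 and adjusted p-values up to 0.00926, 0.0187 and 0.0101 (limma). With KO-labelled library 1 alone, which is assumed to vary like the controls since they supply the whole spread, the differences were 1.34, −1.28 and −1.07. Lmnb2 passed in the fit with a replicate block by animal number (−0.86), and the block changed no other call among the members. Values that did not pass changed sign under some settings: Rad21 to −0.26 with library totals set equal, −0.10 with quantile normalization, −0.01 with array weights and −0.03 with KO-labelled library 1 alone, and Smc1a to −0.11 with equal totals. Without each library in turn, Lmnb1 lay between −0.37 and 0.28, Rad21 between −0.09 and 0.20 and Lmnb2 between −1.09 and −0.52. Equal totals moved the median of all genes to −0.36 and gave 1440 genes higher and 3065 lower, against 2279 and 2049 as reported. KO-labelled library 1 alone gave 1305 higher. Without each library in turn, 1515 to 2300 genes were higher and 1107 to 2164 lower, with 1155, 1107 and 1116 lower without control 1, 2 and 3 and 1515 higher without control 3. The cause was not tested. Depth limits the lowest member, Lmnb2, at about 15 to 108 reads per library.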
